A study of Mus musculus with 12 samples.

Results

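Alpha-arrestins are adaptor proteins with an arrestin fold. The 5 genes followed here, Arrdc1, Arrdc2, Arrdc3, Arrdc4 and Txnip, were listed by name out of 17335 genes in the count tables of the series, and the group was chosen because Arrdc3 was higher in the Gem group of KPC4 tumour cells. All 5 passed the filter on low counts in both cell lines. Values of the KPC4 contrast therefore chose the group and are given below as a description with no test. The PSC4 contrast used other libraries and was tested.

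Most alpha-arrestins carry motifs that bind the WW domains of Nedd4-family ubiquitin ligases, and so bring these ligases to receptors and transporters at the membrane, which are then taken up and sorted. Txnip also binds thioredoxin and restrains glucose uptake by removing glucose transporters from the cell surface. Its gene, and that of Arrdc4, are textbook targets of the sugar-sensing factor Mondo with its partner Mlx. Arrdc3 is known for its part in the trafficking of membrane receptors and of an integrin beta chain, and Arrdc1 for a kind of vesicle that buds from the plasma membrane with the help of Tsg101. Less is known of Arrdc2.

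The series is a chain of medium transfers between 2 mouse lines, PSC4 pancreatic stellate cells and KPC4 pancreatic cancer cells, with 3 biological replicates in each of 4 groups. PSC4 Control-SU and PSC4 Gem-SU are stellate cells held for 24 h in medium from KPC4 cells that had received vehicle or 10 µM of the nucleoside drug gemcitabine for 6 h, had been washed, and had then conditioned starvation medium for 14 h. KPC4 Control-PSC-SU and KPC4 Gem-PSC-SU are tumour cells held for 24 h in medium that PSC4 cells conditioned over 18 h, after these had spent 6 h in Control-SU or Gem-SU and been washed. Each cell type is 1 line, and no genotype is given in the labels. Drug carried in the medium and products of drug-treated cells cannot be told apart. Lower transcript levels per cell and fewer expressing cells cannot be told apart either in such bulk RNA.

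Library totals lay between 26354328 and 38138356 counts. Of 8 pancreatic epithelial markers all were above 1 CPM in KPC4, with a sum of 6039 to 7735 CPM, against 15.1 to 21.1 CPM in PSC4, where Epcam and Cdh1 were at 0. CPM is the count scaled to a common library total, here after TMM normalisation. Of 12 stellate and fibroblast markers 11 were above 1 CPM in control PSC4, while Lum was at 0. Their sum was 7952 to 8685 CPM with Control-SU and 2368 to 3494 CPM with Gem-SU, so this sum moved with the PSC4 contrast, and its part in the results was not tested. Col1a1, Col3a1, Pdgfra and Vim carried most of the fall, while Acta2 went from 15.5 to 25.7 CPM and Des from 2.80 to 3.22 CPM. In KPC4 only 3 of them were above 1 CPM, Vim, Col1a1 and Col3a1, and Pdgfrb and Dcn were at 0. Of the 6 immune markers only Cd68 was above 1 CPM in any group, with 4.31 CPM in control PSC4, and endothelial markers summed to at most 4.67 CPM in any library.

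The promoters of the 3 genes with the most to compare, Txnip, Arrdc4 and Arrdc3, are shown because the first pair are known Mondo and Mlx targets and the group was chosen on Arrdc3. Each is the 250 bases before the RefSeq start, 5′ to 3′ on the gene's strand, from RefSeq sequence of GRCm38.p6, at chr3:96557707-96557956 (plus strand) for Txnip, chr7:68749239-68749488 (minus strand) for Arrdc4 and chr13:80883134-80883383 (plus strand, the first listed of several starts) for Arrdc3. Capitals mark the carbohydrate response element in Txnip, the E-box in Arrdc4, and CCAAT boxes on either strand in all 3.
Txnip: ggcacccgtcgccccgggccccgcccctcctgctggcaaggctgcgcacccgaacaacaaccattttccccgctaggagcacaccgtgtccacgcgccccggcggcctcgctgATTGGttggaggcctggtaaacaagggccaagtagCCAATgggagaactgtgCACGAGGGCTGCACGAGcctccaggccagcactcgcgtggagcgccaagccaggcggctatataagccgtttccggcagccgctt
Arrdc4: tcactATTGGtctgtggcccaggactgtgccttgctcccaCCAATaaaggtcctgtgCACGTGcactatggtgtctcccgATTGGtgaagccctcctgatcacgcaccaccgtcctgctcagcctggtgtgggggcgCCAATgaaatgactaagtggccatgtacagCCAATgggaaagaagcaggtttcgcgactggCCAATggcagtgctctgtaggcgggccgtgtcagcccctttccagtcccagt
Arrdc3: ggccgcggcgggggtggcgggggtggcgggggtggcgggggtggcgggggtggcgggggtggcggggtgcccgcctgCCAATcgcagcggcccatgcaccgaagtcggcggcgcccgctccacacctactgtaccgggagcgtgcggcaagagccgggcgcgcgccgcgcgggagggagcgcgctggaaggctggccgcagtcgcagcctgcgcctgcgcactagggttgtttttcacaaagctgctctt

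Both strands were searched for fixed letters, and all 5 genes had a RefSeq promoter. A carbohydrate response element, searched as CACGNG followed after any 5 bases by CACGNG again, was found in Txnip as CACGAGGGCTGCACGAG, from 85 to 69 bases before the start. It was found in 0.0457% of 32851 promoter windows of this length, and in no window of the other 4 genes. The E-box CACGTG, which can also form either arm of that element, was found in Arrdc4, from 193 to 188 bases before the start, and in 6.02% of all windows. CCAAT was found 6 times in Arrdc4, 3 times in Arrdc2, 2 times in Txnip and once in the first Arrdc3 window but not in Arrdc1, and in 33.8% of all windows. No window of the 5 genes held TATAAA (12.4% of all windows), TGACGTCA (1.55%), TGANTCA (6.75%) or the glucocorticoid response element, searched as AGAACA and TGTTCT with any 3 bases between (0.00913%). These are matches of letters in a short window, not measured binding.

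In control cells of both lines Txnip was by far the most abundant of the 5 genes per length. Levels between genes are compared as RPKM, the CPM per kilobase of the union of a gene's exons. With Control-SU in PSC4 Txnip averaged 92.9 RPKM ± 17.7 (SD, n = 3), Arrdc3 16.4 ± 0.957, Arrdc2 6.38 ± 0.437, Arrdc1 3.84 ± 1.18 and Arrdc4 0.0540 ± 0.0602 RPKM. No 2 neighbours in this order overlapped between their libraries.

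With Control-PSC-SU in KPC4 the order differed, with Txnip at 136 RPKM ± 62.8 (SD, n = 3), Arrdc1 at 14.6 ± 1.20, Arrdc3 at 9.26 ± 0.287, Arrdc2 at 3.44 ± 0.193 and Arrdc4 at 2.09 ± 0.917 RPKM. Neighbours again did not overlap. In both Gem groups Txnip and Arrdc3 came first and second. Txnip reached 467 RPKM ± 125 with Gem-SU in PSC4 and 1346 RPKM ± 698 with Gem-PSC-SU in KPC4 (SD, n = 3 each), and Arrdc3 reached 41.4 ± 15.03 and 76.6 ± 43.7 RPKM. By mean CPM Txnip was number 28 of 14360 genes present in both tables in Gem-SU PSC4, from number 705 in controls, and number 6 in Gem-PSC-SU KPC4, from number 381. In the latter group Arrdc4, at 5.77 ± 3.38 RPKM, and Arrdc2, at 5.56 ± 1.19 RPKM, overlapped.

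**Figure D1:**
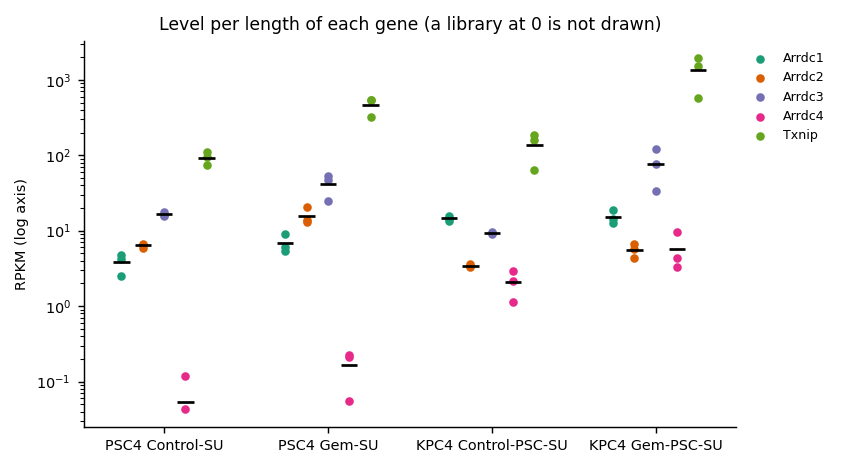
Level per length (RPKM, log axis) of the 5 genes in the 4 groups; each point is 1 library and each black bar the mean of 3, with 1 Arrdc4 library at 0 counts not drawn. Txnip lies above the other genes in all groups, and Arrdc4 lies under 0.3 RPKM in PSC4 and above 1 RPKM in KPC4.

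In PSC4 4 of the 5 genes rose with Gem-SU: Txnip about 5-fold, Arrdc3 and Arrdc2 about 2.6-fold and Arrdc1 about 1.8-fold. Arrdc4 was near the floor of detection and did not pass. The rise was called where edgeR's quasi-likelihood test gave an adjusted p under 0.05 over all 13347 genes tested, a mark that 24.3% of genes passed upwards and 22% downwards. The Gem-SU libraries all lay above the control libraries for the same 4 genes, as they did for 29.5% of all genes tested. The comparison asks how stellate cells respond to medium of drug-treated rather than vehicle-treated tumour cells.

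Txnip (ENSMUSG00000038393) stood at 268, 309 and 210 CPM in the control libraries and at 913, 1513 and 1536 CPM with Gem-SU, in the order of the replicate numbers. The groups were far apart, and replicate 1 was the lowest Gem-SU library. On the log2 scale edgeR fitted a rise of 2.37 (SE 0.26, adjusted p = 0.00028), which is 5.17-fold with a 95% interval of 3.44 to 7.79. Only 2.84% of genes tested had a larger log2 fold change.

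Arrdc3 (ENSMUSG00000074794) stood at 72.7, 65.7 and 66.03 CPM in controls and at 102, 193 and 221 CPM with Gem-SU. The controls lay close together, while the Gem-SU libraries spread 2.17-fold, again with replicate 1 lowest. On the log2 scale edgeR fitted a rise of 1.38 (SE 0.26, adjusted p = 0.0032), which is 2.60-fold with a 95% interval of 1.72 to 3.91. This is the result for Arrdc3 that does not rest on the libraries it was chosen on.

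Arrdc2 (ENSMUSG00000002910) stood at 15.3, 13.9 and 15.9 CPM in controls and at 48.4, 32.6 and 30.9 CPM with Gem-SU. Here replicate 1 was the highest Gem-SU library, unlike for Txnip and Arrdc3. The rise fitted by edgeR was 1.36 in log2 units (SE 0.21, adjusted p = 0.0012), which is 2.56-fold with a 95% interval of 1.84 to 3.58.

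Arrdc1 (ENSMUSG00000026972), the adaptor of vesicle budding, stood at 7.93, 4.16 and 7.08 CPM in controls and at 14.96, 9.06 and 10.1 CPM with Gem-SU. The groups were apart by little more than 1 CPM, and replicate 1 was again the highest. The rise of 0.88 in log2 units (SE 0.30) passed narrowly in edgeR, with an adjusted p of 0.041. The call was lost without any 1 of 5 of the 6 libraries, namely without Control-SU replicate 2 or 3 or without Gem-SU replicate 1, 2 or 3 (adjusted p from 0.0553 to 0.108), with log2 fold changes of 0.62 to 1.02.

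Arrdc4 (ENSMUSG00000042659) had 6, 0 and 15 counts in the control libraries and 9, 30 and 28 with Gem-SU. The groups overlapped. Its log2 fold change of 1.64 had a 95% interval of -0.64 to 3.92 (edgeR quasi-likelihood, adjusted p = 0.21), so that neither a fall nor a large rise is outside it at this depth. Leaving out 1 library moved it between 1.05 and 2.87.

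The authors' deposited table gave smaller changes for some of these genes in PSC4. It lists a log2 fold change of 2.29 for Txnip (adjusted p = 1.71e-14) and of 1.07 for Arrdc3 (adjusted p = 0.00581). For Arrdc2 the authors' deposited table has 0.72 with an adjusted p of 0.0508, and for Arrdc1 0.24 with an adjusted p of 0.625, so neither passed there. Its value for Arrdc4 was 1.44 (adjusted p = 0.254). Over 12361 genes matched by symbol, the log2 fold changes in the authors' deposited table were within 0.1 of the edgeR values, after the median difference, for 63.9% and more than 0.3 apart for 10.5%. The cause of these differences was not tested.

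**Figure D2:**
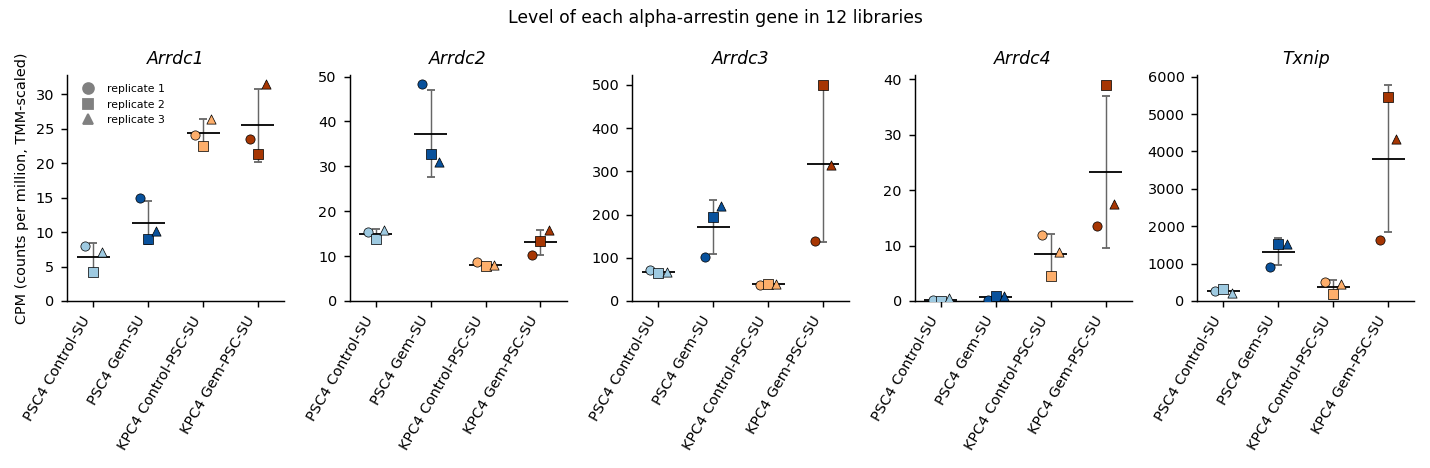
Level of the 5 genes in each of the 12 libraries (CPM, linear axes from 0, 1 panel per gene); colour marks the group, the symbol the replicate number, the black line the mean and the grey bar the SD of 3 libraries. Txnip and Arrdc3 are higher in every Gem library than in every control library of both lines, while Arrdc1 shows this only in PSC4.

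In KPC4 Arrdc3 and Txnip had the larger values of the group, with fitted changes of about 8-fold and 10-fold between medium of Gem-SU-exposed and of Control-SU-exposed stellate cells. Arrdc4 was about 2.8-fold and Arrdc2 about 1.6-fold higher in the Gem group, and Arrdc1 was at the same level within its spread. Since this contrast chose the genes, none of these values is tested. Over all 13236 KPC4 genes edgeR called 0 at an adjusted p under 0.05, or 0%, while 2251, or 17%, had an unadjusted p under 0.05 and DESeq2 called 823, or 6.22%. Taken over 11209 genes, same-numbered KPC4 libraries deviate together, though not every gene follows this. A fit with that number as a block called 1171 genes, or 8.85%, with 6.07% higher and 2.78% lower.

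Arrdc3 stood at 37.3, 39.7 and 38.3 CPM in the control libraries and at 138, 501 and 315 CPM with Gem-PSC-SU. The controls differed by only 1.06-fold from lowest to highest, and the Gem-PSC-SU libraries by 3.63-fold. Its fitted log2 fold change was 3.07, exceeded by 0.506% of genes. Leaving out 1 library moved the fitted value between 2.56 and 3.43.

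Txnip stood at 517, 183 and 454 CPM in controls and at 1619, 5453 and 4344 CPM with Gem-PSC-SU. The lowest Gem-PSC-SU library was above the highest control by a wide margin. Here the controls were not alike, as replicate 2 was the lowest of them and, with Gem-PSC-SU, the highest. The fitted log2 fold change was 3.33, exceeded by 0.393% of genes, with 2.96 to 3.70 when 1 library was left out.

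Arrdc4 stood at 11.97, 4.59 and 8.79 CPM in controls and at 13.5, 38.9 and 17.5 CPM with Gem-PSC-SU. The groups were separated by a small gap, and replicate 2 was lowest in controls and highest with Gem-PSC-SU, as for Txnip. The fitted log2 fold change was 1.49. Without Gem-PSC-SU replicate 2 it was 0.87, so that 1 library carried much of it.

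Arrdc2 stood at 8.59, 7.72 and 7.96 CPM in controls and at 10.2, 13.4 and 15.7 CPM with Gem-PSC-SU, a fitted log2 fold change of 0.71. Its libraries did not overlap, and replicate 1 was again the lowest of the Gem group. Arrdc1 stood at 24.2, 22.5 and 26.5 CPM in controls and at 23.6, 21.4 and 31.5 CPM with Gem-PSC-SU, a fitted log2 fold change of 0.08 that lay between -0.10 and 0.18 when 1 library was left out. For 4 of the 5 genes all Gem-PSC-SU libraries lay above all controls, against 11.6% of all genes tested. Fitted values above 0 were found for all 5, with Arrdc1 at only 0.08, and for 48.1% of genes. The group was chosen on this contrast, so these counts are a description and test nothing. The authors' deposited table lists KPC4 log2 fold changes of 3.24 for Arrdc3, 3.24 for Txnip, 0.93 for Arrdc4, 0.43 for Arrdc2 and -0.02 for Arrdc1. Its values for Arrdc4 and Arrdc2 are thus smaller than those fitted by edgeR, and that for Arrdc1 has the other sign.

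Within the numbers, the ratio of Gem-PSC-SU to Control-PSC-SU was smallest in replicate 1 and largest in replicate 2 for Arrdc3, Arrdc4 and Txnip. It was 3.70, 12.6 and 8.23 for Arrdc3 in replicates 1, 2 and 3. For Txnip it was 3.13, 29.8 and 9.56, and for Arrdc4 1.13, 8.46 and 1.99. Arrdc2 differed in having its largest ratio in replicate 3, with 1.18, 1.74 and 1.97. Arrdc1 had 0.976, 0.949 and 1.19, on both sides of 1. With the number as a block the fitted log2 fold changes were 2.88 for Arrdc3, 3.28 for Txnip, 1.39 for Arrdc4, 0.69 for Arrdc2 and 0.06 for Arrdc1. For Txnip and Arrdc4 replicate 2 was the lowest control and the highest Gem-PSC-SU library, so same-numbered libraries did not move together for these genes.

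**Figure D3:**
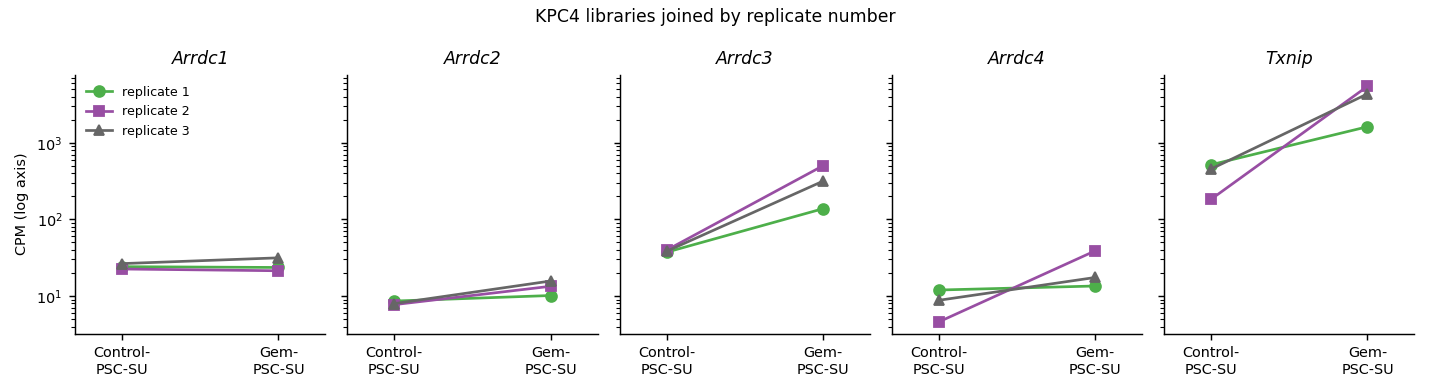
KPC4 libraries of the same replicate number joined by lines (CPM, log axis, 1 panel per gene). The line of replicate 2 climbs most for Arrdc3, Arrdc4 and Txnip, and that of replicate 1 least, while the lines for Arrdc1 stay level.

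**Figure D4:**
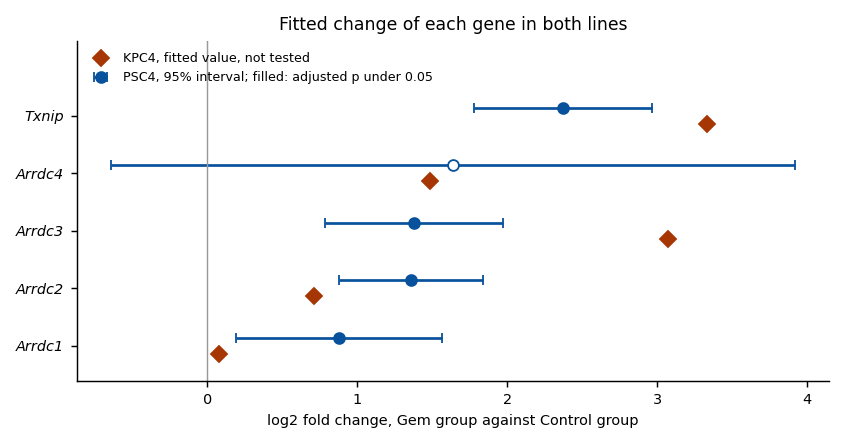
Fitted log2 fold change of each gene, with the 95% interval for PSC4 and the value alone for KPC4, where the genes were chosen and no test is given. PSC4 values of 4 genes pass the threshold, and the interval of Arrdc4 spans 0.

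The 2 steps put the Gem groups of Arrdc3 in overlapping ranges, 102 to 221 CPM in PSC4 and 138 to 501 CPM in KPC4, from controls that were higher in PSC4. For Txnip the control ranges of the lines overlapped, and every Gem-PSC-SU library of KPC4 was above every Gem-SU library of PSC4. Arrdc2 was highest with Gem-SU in PSC4, and its Gem-PSC-SU KPC4 libraries overlapped with the PSC4 controls. Arrdc1 and Arrdc4 were higher in every KPC4 library than in every PSC4 library. The difference of response between the lines was not tested, since it contains the contrast the genes were chosen on.

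The control groups of the lines were compared in 1 fit of all 12 libraries over 13632 genes, of which 42.9% were called, 22.3% higher and 20.6% lower in PSC4. Of the 4 alpha-arrestins tested there, 3 passed, though the KPC4 control libraries are also part of the contrast that chose the group. Line, medium and experiment cannot be told apart in this comparison. Arrdc4 was lower in PSC4 by 37.0-fold, a log2 difference of -5.21 with a 95% interval of -6.94 to -3.48 (edgeR, adjusted p = 0.00013). Its size rests on few PSC4 counts: it was -6.51 without Control-SU replicate 3, and from -6.51 to -4.70 over all fits that left out a library, and -6.33 with the replicate block. Arrdc1 was lower in PSC4 by 3.66-fold, a log2 difference of -1.87 with a 95% interval of -2.47 to -1.27 (edgeR, adjusted p = 9.49e-05).

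Arrdc2 went the other way and was 1.93-fold higher in PSC4, with a log2 difference of 0.95 and a 95% interval of 0.46 to 1.43 (edgeR, adjusted p = 0.0037). Txnip did not pass, with a log2 difference of -0.49 and a 95% interval of -1.40 to 0.41 (edgeR quasi-likelihood, adjusted p = 0.374). Arrdc3 was 0.88 higher in PSC4 on the log2 scale, given with no test because its KPC4 controls entered its choice.

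Genes that work with alpha-arrestins were followed in 6 lists of partners, cargoes and neighbouring pathways, and a further 2 lists stand among the closing observations. In PSC4 29 of the 59 listed genes that could be tested in all 8 lists passed, 16 higher and 13 lower. That is 49.2% against 46.3% of all genes, of which 24.3% were higher and 22% lower. The PSC4 counts of each list stand beside these shares. In KPC4 0 of 58 passed by edgeR, 15 had an unadjusted p under 0.05, 12 of them higher, where 17% of all genes did, and DESeq2 called 9, where it called 6.22% of all genes. With the replicate block 6 were higher and 2 lower, or 13.8% of them against 8.85% of all genes. Calls given for each list below are those of edgeR.

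The Nedd4-family ligases that alpha-arrestins recruit were mixed in PSC4, with 1 of 8 higher, 2 lower and a median log2 fold change of 0.09, against 0.00 over all genes. Nedd4, the founding ligase, averaged 2925 CPM ± 489 in controls and 1104 CPM ± 60.2 with Gem-SU (SD, n = 3 each), and so fell by 1.36 in log2 units (edgeR, adjusted p = 0.00098). Wwp2 fell by 0.61 and Nedd4l rose by 0.45. The Itch value was 0.19 and did not pass. In KPC4 the median of the 9 ligases was -0.29, and with the replicate block Hecw2 alone passed. Hecw2 rested on few counts, averaging 0.144 CPM ± 0.220 in controls and 4.005 CPM ± 6.05 with Gem-PSC-SU. The rule for names also gave Nedd4l, with 0.62 and no call.

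Of 9 ESCRT genes, which sort ubiquitinated cargo, Stam rose and Chmp4b fell in PSC4, and the median was -0.08. Stam, a part of the first ESCRT complex on endosomes, went from 49.9 CPM ± 7.96 to 114 CPM ± 11.96 (log2 fold change 1.23), and Chmp4b, a filament subunit, fell by 0.89. Tsg101, the partner of Arrdc1, had a value of 0.06 and did not pass. In KPC4 none of the 9 passed with or without the block, with a median of 0.16 and with Stam at 0.39 and Vps4b at 0.19.

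Other genes of the arrestin fold gave 1 higher and 1 lower of 6 tested in PSC4, where 24.3% of all genes were called higher and 22% lower. Arrb1, a beta-arrestin that binds activated receptors, fell by 0.70, from 77.4 CPM ± 6.43 to 46.3 CPM ± 3.26. Sag, the arrestin of photoreceptors, rose by 1.58 from 0.814 CPM ± 0.316 and is a low-count result. In KPC4 none of the 6 passed with or without the block, with Sag at 2.00 and Vps26a at 0.48. Arrdc5, an alpha-arrestin outside the 5, was not among the genes tested in either line.

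Of the 8 lists, which were chosen with earlier results of these data known, only that of glucose sensing and entry had all genes tested pass in PSC4. Of its genes 6 were higher and 1 lower, with a median of 1.35, where 24.3% of all genes were called higher and 22% lower. Slc2a1, the main basal glucose transporter and a known cargo of Txnip, averaged 38.5 CPM ± 2.36 in controls and 175 CPM ± 8.17 with Gem-SU (SD, n = 3 each), a rise of 2.23 in log2 units (SE 0.13, edgeR adjusted p = 2.5e-05). Hk2, a hexokinase, rose by 1.35, while Hk1 fell by 0.65. The gene of MondoA, Mlxip, rose by 1.10 and that of its partner Mlx by 0.66. Slc2a3 and Slc2a4 also rose, by 1.62 and 2.84, from 1.29 and 0.155 CPM.

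In KPC4 the same list had a median of -0.08 over 7 genes. Slc2a1 averaged 263 CPM ± 19.0 in controls and 210 CPM ± 15.1 with Gem-PSC-SU (SD, n = 3 each), with a log2 value of -0.31 and no call. Hk2 had -0.40, Mlxip -0.08 and Mlx 0.65, none of them called. With the replicate block Slc2a3 alone passed, higher, from 0.497 CPM. Whether the list's response differed between the lines was not tested.

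The thioredoxin system, to which Txnip binds, had 2 genes higher and 3 lower of 9 in PSC4, with a median of -0.48. Of all genes 24.3% were called higher and 22% lower there. Txnrd1, the cytosolic thioredoxin reductase, rose by 0.88, from 189 CPM ± 23.4 to 338 CPM ± 32.7, and Txnrd2, the mitochondrial reductase, fell by 1.07. Txn1 itself, the thioredoxin that Txnip binds, had -0.58 and did not pass. In KPC4 the median was -0.25, and with the block Txnrd3 and Prdx2 fell, by 0.88 and 0.49.

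Of 6 receptors and other cargoes of alpha-arrestins, Notch1 alone passed in PSC4, with 28.2 CPM ± 1.31 in controls, 129 CPM ± 24.7 with Gem-SU and a log2 fold change of 2.24. F2r, the thrombin receptor whose sorting involves Arrdc3, had -0.26 and did not pass. In KPC4 all 4 cargoes tested had values under 0, where 48.1% of all genes had values above 0, with a median of -0.42, among them F2r at -0.62 and Insr at -0.49, and none passed with or without the block.

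**Figure D5:**
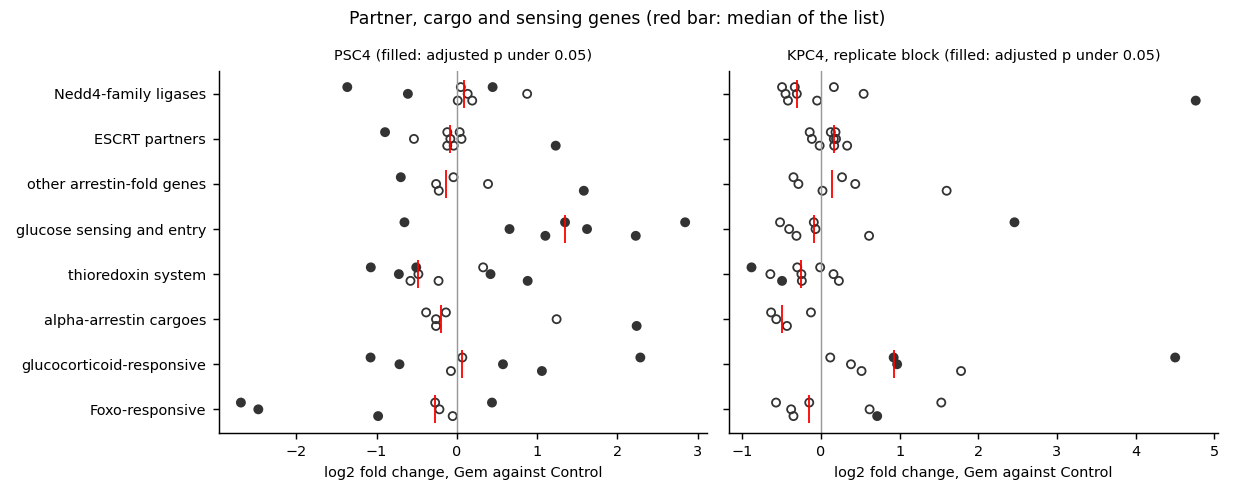
Log2 fold change of each listed gene in PSC4 and, with the replicate block, in KPC4; filled points have an adjusted p under 0.05 in edgeR over all genes, and the red bar is the list's median. All points of the glucose list are filled in PSC4, 6 of them to the right of 0.

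Candidates were 9410 genes with a mean of at least 10 CPM, after genes with provisional names, pseudogenes and members of the group were left out. Of these, the genes whose log2 CPM followed Arrdc3 most closely over the 12 libraries were Zfp948, Resf1, Necap1, Rfx5 and Cwc25. Pearson's r was 0.954, 0.954, 0.949, 0.937 and 0.936. Txnip itself, not a candidate as a member of the group, had 0.901 with Arrdc3. Libraries of a group share line and medium, so that these correlations describe group levels as much as libraries. The genes were picked on these same 12 libraries, so their changes are a description with no test. Zfp948, a zinc finger gene, went from 24.0 to 110 CPM in PSC4 (log2 fold change 2.24) and from 15.97 to 141 CPM in KPC4. Resf1, a retroelement silencing factor, went from 232 to 368 and from 158 to 863 CPM.

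The genes nearest to Txnip were Phlda1, Zc3h11a, Dnajb4, Atg14 and Supt6, with r of 0.948, 0.944, 0.942, 0.941 and 0.936 over the 12 libraries. Their changes are likewise described with no test. Phlda1 went from 70.2 to 333 CPM in PSC4 (log2 fold change 2.29) and from 113 to 582 CPM in KPC4. The others had smaller changes, for example Dnajb4, a co-chaperone, with log2 fold changes of 0.77 in PSC4 and 0.94 in KPC4.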

How the data were processed

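Total RNA of 12 libraries was sequenced (Illumina NovaSeq X Plus in the labels' protocols). The authors deposited 1 table of whole-number counts per Ensembl gene for each line. These are taken as estimated counts, since Salmon is the only quantifier in the submitters' processing notes, which also name Trim Galore 0.6.10, cutadapt 5.2, DESeq2 and GRCm39 with no roles. The annotation and the library's strand are not given in the sources used here. The smallest row total was 0 in the PSC4 and 11 in the KPC4 table. The authors also deposited, per line, log2 fold changes with p-values and adjusted p-values, in tables named as DESeq2 output.

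Symbols came from GENCODE M21 and matched 99.7% of identifiers in each table; exon lengths for RPKM came from the same release on GRCm38. In that annotation the antisense gene Gm15441 shares 606 exon bases with Txnip, so that reads of both cannot be told apart without strand. Members and lists were chosen with earlier results of these data known.

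Each line was fitted with edgeR 4.0.16 in R 4.3.3 (filterByExpr, TMM, robust quasi-likelihood, Benjamini-Hochberg over all genes, threshold 0.05). CPM uses TMM factors over all 12 libraries and log2 CPM a prior count of 2. The named list genes are the 2 with the smallest p per list and line at a mean of at least 50 counts, and others were named after their values were seen. The fits were also run on simulated counts with the same spread setting for every gene and no replicate effect. These are simpler than the real libraries, so the run checks the code only. DESeq2 1.42.0, its size factors, other filters, robust estimation off, the replicate block, 1 fit of 4 groups and leaving out each library were alternatives. Same-numbered KPC4 libraries had deviations from their group means that correlated at 0.403, 0.529 and 0.332, so the numbers were taken as pairs there, from the values alone. Arrdc4 in PSC4 had 0 to 30 counts per library, and otherwise each of the 5 genes had at least 135. The labels call the replicates biological but name no separate cultures, so p-values measure the spread between these libraries only.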

Additional observations from a re-analysis of the deposited data

How the results depend on the processing

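In PSC4, the calls of Txnip, Arrdc3 and Arrdc2 kept their direction and their side of the threshold under all 7 other settings and all 6 fits without a library, with log2 fold changes of 2.20 to 2.58, 1.16 to 1.65 and 1.12 to 1.48, while Arrdc1 lost its call in 5 of those 6. The authors' deposited table, from their own processing, called neither Arrdc2 (log2 fold change 0.72) nor Arrdc1 (0.24). PSC4 numbers gave correlations of 0.584, -0.112 and 0.0965 and were not taken as pairs; the replicate block raised the PSC4 count from 6177 to 7266 genes and changed no call among the 5 genes. Leaving out a library gave from 4061 to 6826 PSC4 genes, the lowest without Gem-SU replicate 2. For KPC4, where 0 genes were called, the replicate block gave 1171, DESeq2 823 and 1 fit of all 12 libraries 610, the other 4 settings gave 0, and leaving out a library gave from 0 to 1129 (1129 without Gem-PSC-SU replicate 1, 1 without its replicate 2, and 174 without replicate 2 of Control-PSC-SU). The listed genes called in KPC4 moved from 0 to 8 with the replicate block, and those in PSC4 from 29 to 31. The cause was not tested. The 1 fit of all 12 libraries takes its spread from both lines and also differs in the genes tested and their scaling. The comparison of control groups gave from 4739 to 6350 genes under other settings and from 4954 to 6272 without a library, and no call among the 4 genes tested there changed. With at least 10 counts in every library Arrdc4 left the PSC4 and control-group fits and has no value there.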

Other observations

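Txnip and some of its relatives are known to respond to glucocorticoids and to Foxo factors in other tissues, and 2 lists of such genes were followed. Of 7 glucocorticoid-responsive genes tested in PSC4, 3 rose and 2 fell, with a median log2 fold change of 0.07. Of all PSC4 genes 24.3% were called higher and 22% lower. Dusp1, a phosphatase of MAP kinases, rose by 2.29, from 30.2 CPM ± 3.87 to 143 CPM ± 22.7 (SD, n = 3 each; edgeR quasi-likelihood, adjusted p = 6.6e-05), and Errfi1, an inhibitor of EGF receptor signalling, by 1.06. Tsc22d3 and Klf9, often used as glucocorticoid markers, fell by 1.07 and 0.71, and Fkbp5 rose by 0.57. In KPC4 all 7 had values above 0, with a median of 0.95, where 48.1% of all genes did. None passed in edgeR without the replicate block. With the block Dusp1, Sgk1 and Per1 rose, by 4.502, 0.97 and 0.92, and Errfi1, at 1.78, did not pass. Dusp1 spread widely, averaging 10.4 CPM ± 7.31 in KPC4 controls and 265 CPM ± 201 with Gem-PSC-SU.

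Of 7 Foxo-responsive genes tested in PSC4, 1 rose and 3 fell, with a median of -0.27, beside the same 24.3% higher and 22% lower of all genes. Pik3ip1, an inhibitor of PI3 kinase, fell by 2.69, from 18.7 CPM ± 5.54 to 2.79 CPM ± 1.15, and Fbxo32, a ubiquitin ligase subunit of muscle wasting, by 2.47, from 40.4 CPM ± 7.46 to 7.06 CPM ± 0.475 (SD, n = 3 each). In KPC4 the median was -0.08, and with the block Ccng2 rose by 0.72 while Bcl6, at 1.53, did not pass.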
